A study of Danio rerio with 8 samples.

Results

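GFP-only tumour cells were compared with double-positive tumour cells of zebrafish embryonal rhabdomyosarcoma, a tumour that resembles developing skeletal muscle. Both populations carry the myf5-GFP reporter, and they differ in the mylz2-mCherry reporter, so the comparison asks how expression differs between GFP-positive cells without and with the differentiation reporter. The 4 arrays were taken by their titles, 2 of GFP+/mCherry-negative and 2 of GFP+/mCherry+ cells, out of 8 arrays in the series, and they are paired by tumour number. All 15502 probe sets were compared.

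The GFP-only and double-positive cells, and the double-negative and mCherry-only cells of the other 4 arrays, came from the same 2 tumours, so n = 2 tumours for every population. The tumours arose in myf5-GFP/mylz2-mCherry transgenic fish of the CG1 strain, outcrossed 4 times, after rag2-kRAS12D had been injected into the early embryo. They were grown in syngeneic recipients without fluorescent reporters and collected more than 20 days after transplantation, and the cells went through 2 rounds of FACS. The rag2 promoter that drives kRAS12D is best known from lymphoid cells, the recipients' own cells carry no reporter, and the labels give no age. Total RNA was amplified with a NuGEN Ovation Pico system and hybridised to Affymetrix zebrafish arrays. The labels do not say how many fish gave each array. The p-values therefore measure the spread between these arrays.

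Skeletal muscle forms when progenitors that express the determination factors Myf5 and MyoD leave the cell cycle, express myogenin and fuse. The fibres then switch on contractile genes: thick filament myosins, thin filament actin, troponin and tropomyosin, Z-disc proteins that anchor both, and the proteins that pump, store and buffer calcium. Fast fibres use their own myosin light chains and troponins, hold much parvalbumin and rely on creatine kinase and glycolysis for ATP.

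Values are the deposited log-scale probe-set signals, read as log2, so differences are given in log2 units and no folds are computed. Each difference is GFP-only minus double-positive with limma's standard error (SE). A probe set counts as called when its Benjamini-Hochberg adjusted p in limma's moderated test, over all probe sets, lies under 0.05. Array medians lay between 4.54 and 4.71, and 19 to 25 values on each of the 4 arrays compared were exactly 0. Rank correlations among these 4 arrays lay between 0.817 and 0.856. The median absolute difference between the populations was 0.58 in tumour 1 and 0.50 in tumour 2. That is about the size of the difference between the tumours, which was 0.65 in GFP-only cells and 0.56 in double-positive cells. Between GFP-only cells of tumour 2 and double-positive cells of tumour 1 it was 0.47, below both values within a tumour. For the opposite cross it was 0.62. In tumour 2, the arrays of mCherry-only cells and of double-negative cells were less like the rest (mean rank correlation with the 4 arrays compared 0.648 and 0.653), and they enter here only through the shared estimate of the spread and as values set beside the comparison.

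The mylpfa gene (formerly mylz2), a regulatory light chain of fast myosin, has the promoter that drives mCherry, so it checks the sort and is no finding. It had 7.40 and 6.23 in GFP-only cells of tumours 1 and 2, against 10.71 and 10.87 in double-positive cells. The populations did not overlap, and the difference was -3.97 ± 0.58 (SE), with an adjusted p of 0.0462 in limma. A second mylpfa probe set had 7.41 and 3.75 in GFP-only cells, against 11.04 and 9.50 in double-positive cells (difference -4.69, adjusted p = 0.0462 in limma). GFP-only cells were still above double-negative cells, where the first probe set had 4.58 and 4.73, but this difference did not pass the test (adjusted p = 0.229 in limma).

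Most genes called lower in GFP-only cells were fast muscle genes, and no gene was called higher. In all, 18 probe sets were called lower, which is 0.116% of those tested, and 0 higher (0%), while 373 (2.41%) were lower and 191 (1.23%) higher at an unadjusted p under 0.05. The 18 stand for 14 genes, a second probe set each of mylpfa and tnni2a.4, and 2 probe sets without a single gene symbol. Of the 14 genes, 10 belong to the 5 fast muscle lists used here, which have 69 measured genes. These counts include mylpfa, the gene of the sort; without it, 16 probe sets and 13 genes were called lower, 9 of them among 68 fast muscle genes. Their differences ran from -5.94 to -3.43 with SEs from 0.474 to 0.657, and in all 14 both GFP-only arrays lay below both double-positive arrays, as did 13.1% of all probe sets. The number of calls rests on few arrays and on the tumour block, which was fitted over all 8 arrays. It was 1 lower without the tumour as a block, and 63 lower and 6 higher with only the 4 arrays compared. Every lower call was lost (0 lower) without either double-positive array or without the GFP-only array of tumour 2. Leaving out that of tumour 1 gave 3 lower calls, and there were 11 without either mCherry-only array (10 of them among the 18) and 31 without either double-negative array.

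**Figure D1:**
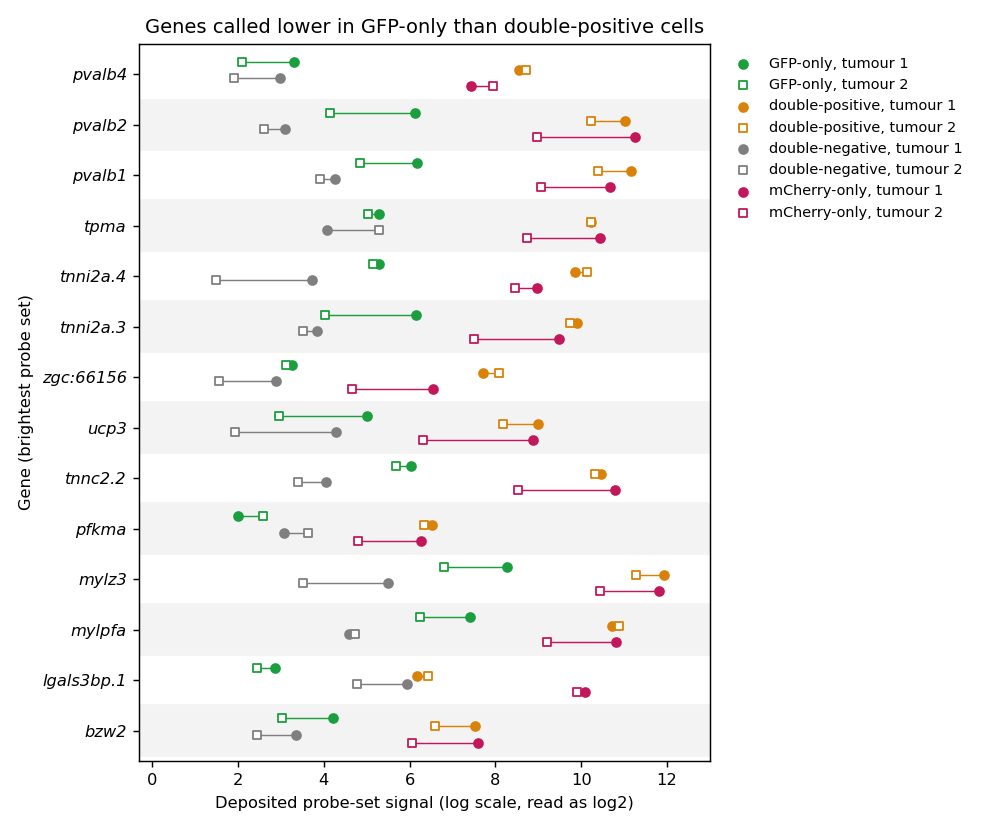
The 14 genes called lower in GFP-only than in double-positive cells, ordered by the size of the difference. The horizontal axis is the deposited probe-set signal (log scale, read as log2). Each symbol is 1 array, filled for tumour 1 and open for tumour 2, and a line joins the 2 arrays of a population. GFP-only values lie between 2.00 and 8.28 and double-positive values between 6.16 and 11.94, and within each gene the 2 populations are apart.

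The largest differences were in 3 of the parvalbumins, which bind calcium and speed the relaxation of fast fibres. For pvalb4 the GFP-only arrays had 3.31 and 2.08, against 8.55 and 8.72 in double-positive cells (difference -5.94 ± 0.57, adjusted p = 0.0108 in limma). Those GFP-only values lie below the lower quartile of their arrays, and signal over background was not used here, so the low side of this difference is poorly bounded. The pvalb2 gene had 6.13 and 4.15 in GFP-only cells, against 11.03 and 10.22 in double-positive cells (-5.48 ± 0.57, adjusted p = 0.0140 in limma). For pvalb1 the values were 6.18 and 4.84 in GFP-only cells, against 11.17 and 10.38 in double-positive cells (-5.26 ± 0.51, adjusted p = 0.0108 in limma). In these 3 genes the gap between populations exceeded the gap between tumours, which was largest in GFP-only cells for pvalb2. Not every parvalbumin moved this way. In tumours 1 and 2 the differences were -1.77 and 2.12 for pvalb5, and -1.77 and 2.6 for pvalb9. Except on the GFP-only array of tumour 2, the values of pvalb5 and pvalb9 lie below the lower quartile of their arrays. Their signs are therefore poorly bounded. The pvalb6 difference was -0.38. Lower in both tumours, as were 22.7% of all probe sets, were pvalb3 (-3.215), pvalb7 (-2.49) and pvalb8 (-0.64). None of these other parvalbumins was called. Parvalbumins, troponins and myosins are families of close copies, and a probe set may read more than 1 of them. The arrays measure RNA of sorted bulk cells, so fewer fibre-like cells and less fibre RNA per cell cannot be told apart.

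Thin filament genes followed. The tropomyosin gene tpma, whose product lies along actin and gates myosin binding, had 5.28 and 5.04 in GFP-only cells, against 10.23 on both double-positive arrays (-5.07 ± 0.66, adjusted p = 0.0277 in limma). The tnni2a.4 gene, a fast troponin I that holds the filament off in the absence of calcium, had 5.28 and 5.15 in GFP-only cells, against 9.85 and 10.14 in double-positive cells (-4.78 ± 0.63). The related tnni2a.3 had 6.14 and 4.02 in GFP-only cells, against 9.90 and 9.75 in double-positive cells (-4.74 ± 0.62). The calcium-binding subunit, fast troponin C encoded by tnnc2.2, had 6.03 and 5.68 in GFP-only cells, against 10.46 and 10.31 in double-positive cells (-4.53 ± 0.59). All 3 troponin genes had an adjusted p of 0.0277 in limma. In the thin filament list 4 of 15 measured genes were called lower and 0 higher, beside 0.116% and 0% of all probe sets. In both tumours 12 (80%) were lower and 1 (6.67%) higher, beside 22.7% and 20.8% of all probe sets. The list's median difference was -1.62, beside -0.03 over all probe sets. Not every troponin gene moved this way: tnnt3a, a fast troponin T, had 3.91 and 8.37 in GFP-only cells, against 6.01 and 7.85 in double-positive cells, so that its sign differed between the tumours.

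Beside mylpfa, 1 of the 5 other thick filament genes measured was called lower, mylz3. Of all probe sets, 0.116% were called lower and 0% higher. The mylz3 gene, an essential light chain of fast myosin, had 8.28 and 6.79 in GFP-only cells, against 11.94 and 11.27 in double-positive cells (-4.07 ± 0.51, adjusted p = 0.0277 in limma). Both populations varied between the tumours by less than the gap between them. The fast myosin heavy chain gene myhz1.3 had 4.72 and 3.98 in GFP-only cells, against 9.26 and 8.45 in double-positive cells, a difference of -4.50 that did not pass the test (adjusted p = 0.0829 in limma). The myosin-binding protein gene mybphb had 5.93 and 4.56 in GFP-only cells, against 9.62 and 9.13 in double-positive cells, and also missed it (-4.13, adjusted p = 0.126 in limma). The median of the list without mylpfa was -4.07 (-4.02 with it). The exception to lower values in both tumours was mybpc2b, a myosin-binding protein C, with differences of 0.52 and -1.02 in tumours 1 and 2.

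Z-disc genes had differences of a smaller size, and 0 of 14 were called in either direction by limma. At an unadjusted p under 0.05, 4 were lower and 0 higher, beside 2.41% and 1.23% of all probe sets. Among them actn3b, the fast-fibre alpha-actinin that crosslinks thin filaments, had 4.57 and 4.27 in GFP-only cells, against 7.75 and 8.63 in double-positive cells (-3.77, adjusted p = 0.126 in limma). The PDZ-LIM gene ldb3a, which binds alpha-actinin, had 4.68 and 5.49 in GFP-only cells, against 7.37 and 8.71 in double-positive cells (-2.96, adjusted p = 0.139 in limma). For the giant spring protein gene ttn.2 the difference was -2.66, and its 4 probe sets ran from -3.02 to -1.07. The list's median was -1.07. In both tumours 9 genes (64.3%) were lower and 1 (7.14%) higher, beside 22.7% and 20.8% of all probe sets.

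In the list of parvalbumin and calcium-handling genes the 3 parvalbumins were the only genes called among 18 measured. The shares called over all probe sets were 0.116% lower and 0% higher. The calcium pump of the fast sarcoplasmic reticulum, atp2a1, had 5.46 and 3.29 in GFP-only cells, against 9.32 and 7.18 in double-positive cells (-3.87, adjusted p = 0.139 in limma). Its values in tumour 2 lay about as far below those of tumour 1 in one population as in the other, and the differences within the tumours were -3.86 and -3.89. Sarcalumenin, a calcium store protein encoded by srl, had 7.49 and 8.53 in GFP-only cells, against 9.93 and 10.94 in double-positive cells (-2.42, adjusted p = 0.341 in limma). Over the list the median was -1.53.

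Among 16 genes of muscle energy metabolism 1 was called lower and 0 higher, beside 0.116% and 0% of all probe sets. The gene called was pfkma, the muscle phosphofructokinase of glycolysis. It had 2.00 and 2.58 in GFP-only cells, against 6.51 and 6.34 in double-positive cells (-4.13 ± 0.59, adjusted p = 0.0444 in limma), and its GFP-only values lie below the lower quartile of their arrays. The muscle creatine kinase gene ckmb had 8.61 and 6.70 in GFP-only cells, against 10.76 and 10.47 in double-positive cells (-2.96, adjusted p = 0.192 in limma). Adenylate kinase ak1 differed by -2.64 in each tumour, with 8.54 and 7.17 in GFP-only cells, against 11.18 and 9.81 in double-positive cells (adjusted p = 0.209 in limma). The muscle phosphoglycerate mutase gene pgam2 had a difference of -2.48. The list's median was -0.93.

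Over the 5 fast muscle lists together, 69 of 123 listed genes were measured. Of these, 10 were called lower and 0 higher, beside 0.116% and 0% of all probe sets. At an unadjusted p under 0.05, 32 were lower and 0 higher, beside 2.41% and 1.23% of all probe sets. In both tumours 46 of the 69 (66.7%) were lower and 5 (7.25%) higher, beside 22.7% and 20.8% of all probe sets. The median difference was -1.74 in tumour 1 and -1.67 in tumour 2. Without mylpfa, 31 of 68 were lower at that p and 45 lower in both tumours. The 5 genes above in both tumours, named here after their values had been seen, were tpm3, pdlim5b, atp2a2a, aldoaa and pgk1, with differences from 0.385 to 0.90, none called. Second probe sets of atp2a2a and pgk1 had differences of -1.37 and -0.56. Of these genes, atp2a2a encodes the slow and cardiac calcium pump, and aldoaa and pgk1 encode glycolytic enzymes that many cell types use.

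Another 4 genes called lower belong to none of the fast muscle lists. The mitochondrial uncoupling protein gene ucp3, expressed in skeletal muscle in mammals, had 5.0 and 2.96 in GFP-only cells, against 9.0 and 8.17 in double-positive cells (-4.61 ± 0.55, adjusted p = 0.0277 in limma). The gene zgc:66156 had 3.26 and 3.11 in GFP-only cells, against 7.70 and 8.09 in double-positive cells (-4.71 ± 0.62, adjusted p = 0.0277 in limma). The translation regulator gene bzw2 had 4.21 and 3.03 in GFP-only cells, against 7.53 and 6.58 in double-positive cells, the smallest called difference (-3.43 ± 0.47, adjusted p = 0.0366 in limma). These 3 genes, like the muscle genes, had higher means in double-positive than in mCherry-only cells. In tumour 1 the order was the other way for bzw2 (7.53 against 7.59) and for some of the muscle genes. The galectin-binding protein gene lgals3bp.1, which belongs to the myeloid list, had 2.87 and 2.44 in GFP-only cells, against 6.16 and 6.42 in double-positive cells (-3.63 ± 0.52, adjusted p = 0.0426 in limma). It had its highest values in mCherry-only cells, 10.08 and 9.91, and was lower in double-positive than in mCherry-only cells (difference -3.705, adjusted p = 0.0156 in limma). Both GFP-only values of zgc:66156 and of lgals3bp.1 lie below the lower quartile of their arrays, as do those of ucp3 and bzw2 in tumour 2. The low side of these differences is therefore poorly bounded.

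The 14 called genes can be set beside the GFP-negative cells of the same tumours. Of the 14, 13 were also called lower in double-negative than in mCherry-only cells, a comparison in which 0.529% of probe sets were called lower, and pfkma was the exception (adjusted p = 0.207 in limma). Without mylpfa the count was 12 of 13. Both comparisons use the same estimate of the spread for a probe set, so the second call is not independent of the first. The difference between mCherry-negative and mCherry-positive cells was then compared between the GFP-positive and the GFP-negative pair, which share no array. No probe set was called in this test by limma (0 of 15502, 0%), and 624 (4.03%) had an unadjusted p under 0.05. Among the 14 genes, mylz3 and pfkma had such a p. For mylz3 the double-negative arrays had 5.49 and 3.51, against 11.81 and 10.44 in mCherry-only cells, so its gap was wider by 2.55 among GFP-negative cells (unadjusted p = 0.0053, adjusted p = 0.722 in limma). In pfkma the gap was wider among GFP-positive cells by 1.95 (difference -1.95, unadjusted p = 0.0432).

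Between populations of like mCherry status few of the 14 genes were called. With n = 2 tumours a missing call does not show that the populations are alike. The GFP-only mean was above the double-negative mean in 12 of the 14 genes, from 0.25 in pvalb4 to 3.04 in mylz3. Only mylz3 was called in that comparison (adjusted p = 0.0244 in limma), where 0.0194% of probe sets were called higher and 0.761% lower. Uncalled differences reached 2.29 in pvalb2 and 2.605 in tnni2a.4. The other way lay lgals3bp.1 (-2.695, adjusted p = 0.0521 in limma) and pfkma (-1.06). The double-positive mean was above the mCherry-only mean in 13 of the 14, by 0.48 to 1.33 in the 10 fast muscle genes, and of the 14 only lgals3bp.1, which lay the other way, was called (0.0258% of probe sets were called higher and 0.832% lower in that comparison). For tnni2a.3 the double-positive arrays had 9.90 and 9.75, against 9.49 and 7.49 in mCherry-only cells, and the spread of the mCherry-only cells covers most of that gap. In tumour 1 the double-positive array lay below the mCherry-only array for pvalb2 (11.03 against 11.25), tpma (10.23 against 10.44) and tnnc2.2 (10.46 against 10.78). The same held for mylpfa (10.71 against 10.80) and bzw2 (7.53 against 7.59). The higher double-positive means of these genes come from tumour 2, where the mCherry-only array was less like the rest. Without mylpfa the counts of means were 11 of 13 and 12 of 13. These comparisons share arrays with each other and with the main one.

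**Figure D2:**
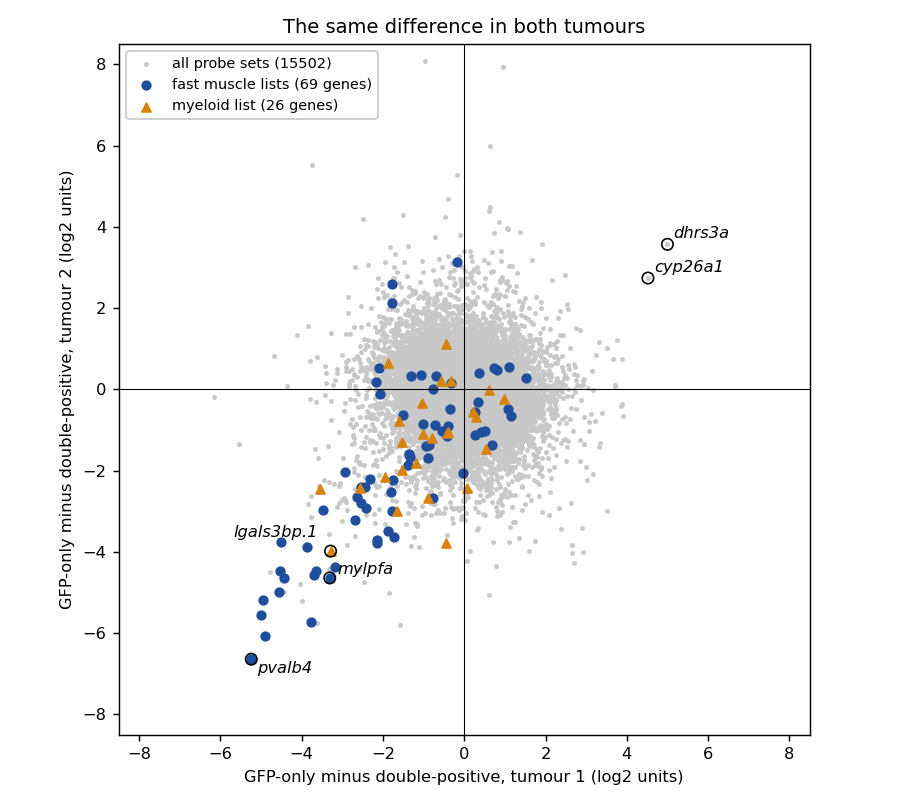
Difference in tumour 1 (horizontal axis) against difference in tumour 2 (vertical axis), GFP-only minus double-positive, in log2 units. Grey points are all 15502 probe sets, blue circles the 69 genes of the fast muscle lists and orange triangles the 26 genes of the myeloid list, each gene by its brightest probe set. Most blue points lie at the lower left, lower in both tumours, and dhrs3a is the only probe set at least 3 above 0 in both.

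The differences of the 2 tumours went together over the fast muscle genes, and over all probe sets they did not. Over all probe sets the correlation between the differences of tumour 1 and tumour 2 was -0.0563 (Pearson) and -0.142 (Spearman), over 15502 probe sets that are not independent and that share arrays within a tumour. Over the 69 fast muscle genes it was 0.771 on both measures, and without them it was -0.0959 and -0.151. At a difference of at least 1 in each tumour, 271 probe sets were lower in both, 153 higher in both and 593 opposite. Among the 7759 probe sets at or above the median level the correlations were 0.124 and -0.0354, and at least 1 in each tumour, 146 were lower in both, 59 higher in both and 131 opposite. Without the fast muscle genes those correlations were 0.045 and -0.0499, with 114 lower in both, 59 higher in both and 131 opposite, so the excess of opposite signs over shared ones at that size came from the dimmer probe sets. At a difference of at least 3, 25 were lower in both, 16 of them of fast muscle genes, and only dhrs3a was higher in both. In single tumours, differences of that size were more frequent, with 65 lower and 27 higher in tumour 1, and 92 lower and 50 higher in tumour 2.

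Retinoic acid is made from vitamin A through retinaldehyde and is removed by Cyp26 hydroxylases, and in many tissues dhrs3 and cyp26a1 are themselves switched on by it. Both genes headed the list of those higher in GFP-only cells in both tumours, but neither was called. The dhrs3a gene, which encodes an enzyme that reduces retinaldehyde back to retinol, had 5.36 and 5.66 in GFP-only cells, against 0.36 and 2.09 in double-positive cells (4.28 ± 0.84, adjusted p = 0.192 in limma). The cyp26a1 gene, which encodes a retinoic acid hydroxylase, had 7.43 and 7.34 in GFP-only cells, against 2.91 and 4.6 in double-positive cells (3.63 ± 0.79, adjusted p = 0.285 in limma). In both genes the 2 GFP-only arrays lay closer together than the 2 double-positive arrays, and the populations did not overlap. Both GFP-only arrays lay above both double-positive arrays in 11.9% of all probe sets. These 2 genes were also picked for being higher in both tumours. The double-positive values of dhrs3a lie below the lower quartile of their arrays, as does that of cyp26a1 in tumour 1. With only the 4 arrays compared, both were called (adjusted p = 0.000138 for dhrs3a and 0.0018 for cyp26a1 in limma). That fit leaves 1 residual degree of freedom, so its spread comes mostly from an estimate pooled over all probe sets. The SE of dhrs3a was 0.624 there, against 0.84 in the main fit, so these p-values say little about the spread of the 2 genes.

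The rest of the retinoic acid list held genes of either sign. Of 20 measured genes limma called 0 in either direction. An unadjusted p under 0.05 was reached by 2 with positive and 1 with negative differences, beside 1.23% and 2.41% of all probe sets. The median was -0.03, and its sign differed between the tumours and turned with quantile normalization. The gene crabp1a encodes a cytoplasmic retinoic acid binding protein. It had 1.38 and 2.62 in GFP-only cells, against 3.54 and 4.36 in double-positive cells (-1.95, adjusted p = 0.657 in limma). Its GFP-only values and its double-positive value of tumour 1 lie below the lower quartile of their arrays. The hydroxylase gene cyp26b1 gave no single answer. Its brightest probe set had 5.34 and 6.63 in GFP-only cells, against 5.36 and 5.82 in double-positive cells (0.395). Another had 4.54 and 5.83 in GFP-only cells, against 2.67 and 4.45 in double-positive cells, higher in both tumours (1.62, unadjusted p = 0.013, adjusted p = 0.997 in limma), and its 4 probe sets ran from -0.745 to 1.62. The gene aldh1a2, which encodes an enzyme that makes retinoic acid, differed by -0.005. It had 3.38 and 3.72 in GFP-only cells, against 3.03 and 4.08 in double-positive cells. Its double-positive value of tumour 1 lies below the lower quartile of that array, and both GFP-only values lie close to theirs. This difference is therefore poorly bounded.

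**Figure D3:**
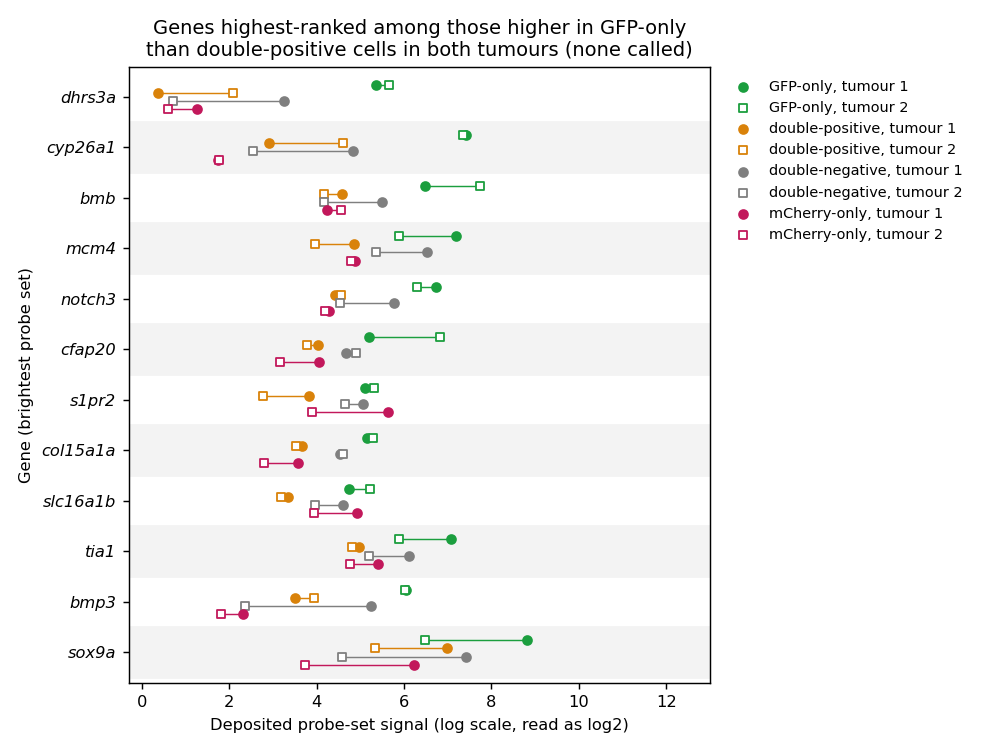
The 12 genes with the smallest p among those higher in GFP-only than in double-positive cells by at least 1 in both tumours. The horizontal axis is the deposited probe-set signal (log scale, read as log2). Each symbol is 1 array, filled for tumour 1 and open for tumour 2, with a line joining the arrays of a population. No gene shown was called, and in sox9a the GFP-only and double-positive arrays overlap.

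With dhrs3a and cyp26a1, 57 genes met the rule of at least 1 higher in each tumour (118 were lower by it), and the 12 with the smallest p are described. The brambleberry gene bmb, known for nuclear envelope fusion in early zebrafish embryos, had 6.49 and 7.75 in GFP-only cells, against 4.57 and 4.18 in double-positive cells (2.74, adjusted p = 0.374 in limma). The replicative helicase gene mcm4 had 7.20 and 5.89 in GFP-only cells, against 4.85 and 3.97 in double-positive cells (2.13, adjusted p = 0.433 in limma). The Notch receptor gene notch3 had 6.74 and 6.30 in GFP-only cells, against 4.43 and 4.55 in double-positive cells (2.03, adjusted p = 0.548 in limma). In these 3 genes every GFP-only array lay more than 1 above every double-positive array. The rule that picked them already asks for at least 1 within each tumour. Of all probe sets, 11.9% had both GFP-only arrays above both double-positive arrays. The growth factor gene bmp3 had 6.05 and 6.03 in GFP-only cells, against 3.51 and 3.93 in double-positive cells (2.32, adjusted p = 0.906 in limma). The remaining genes were cfap20 (a ciliary protein), s1pr2 (a sphingosine-1-phosphate receptor), col15a1a (a basement membrane collagen), slc16a1b (a monocarboxylate transporter), tia1 (an RNA-binding protein) and sox9a (a transcription factor of cartilage), with differences from 1.49 to 2.11. The sox9a gene had 8.82 and 6.48 in GFP-only cells, against 6.99 and 5.33 in double-positive cells, so its populations overlap and only the pairs within a tumour agree in sign. Second probe sets of s1pr2 and tia1 differed by 0.51 and 0.49.

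The myogenic regulators showed no called difference, and every gene of this paragraph had an adjusted p of 0.999 in limma. The determination factor gene myf5, whose promoter drives GFP in both populations, had 5.47 and 5.21 in GFP-only cells, against 3.81 and 6.02 in double-positive cells. Its difference was 1.66 in tumour 1 and -0.81 in tumour 2. For myod1 the values were 3.41 and 3.10 in GFP-only cells, against 4.18 and 1.24 in double-positive cells, again with opposite signs. The differentiation factor gene myog had 8.21 and 6.85 in GFP-only cells, against 8.70 and 8.12 in double-positive cells (-0.88), and the populations overlapped. The progenitor genes pax7a and pax3a were close to even. The pax7a gene had 3.88 and 5.39 in GFP-only cells, against 3.80 and 5.14 in double-positive cells, and its 4 probe sets ran from -0.62 to 0.375. In pax3a the values were 3.81 and 3.0 in GFP-only cells, against 3.79 and 2.89 in double-positive cells. The tumour 2 values of myod1 and pax3a lie below the lower quartile of their arrays in both populations. The differences of these genes are therefore poorly bounded, and near-even values do not show that the populations are alike.

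Some markers next to these regulators kept their populations apart without passing the test. Of all probe sets, the populations were apart in 13.1% with GFP-only lower and in 11.9% with GFP-only higher. Desmin, an intermediate filament of muscle cells encoded by desma, had 9.16 and 8.69 in GFP-only cells, against 10.07 and 10.48 in double-positive cells (-1.35 ± 0.88, adjusted p = 0.999 in limma). The muscle cadherin gene cdh15 lay the other way, with 8.13 and 6.78 in GFP-only cells, against 6.59 and 6.41 in double-positive cells (0.95 ± 0.84). The receptor tyrosine kinase gene met, known from migrating muscle precursors, had 8.32 and 7.16 in GFP-only cells, against 7.23 and 6.43 in double-positive cells, which overlap (0.91 ± 0.59). At an unadjusted p under 0.05, 2.41% of all probe sets were lower and 1.23% higher. Of 17 myogenic regulator and Mef2 genes 0 were called by limma, and 1, mef2aa, was lower at an unadjusted p under 0.05. It had 4.18 and 5.20 in GFP-only cells, against 6.39 and 5.62 in double-positive cells (unadjusted p = 0.0448). Of 13 muscle progenitor genes 0 were called by limma, and the 1 at an unadjusted p under 0.05 was cxcr4b, a chemokine receptor that leukocytes also carry. It had 3.45 and 3.15 in GFP-only cells, against 5.18 and 5.43 in double-positive cells, while mCherry-only cells had 8.92 and 9.27. The fusion and early fibre list (12 genes, median -0.37) had 0 calls and 0 genes at an unadjusted p under 0.05 by limma. The slow and cardiac list (11 genes, median -0.34) had medians of opposite sign in the 2 tumours. It had 0 calls and 1 gene lower at that p. That gene, tnnc1a, the slow and cardiac troponin C, had 0 on the GFP-only array of tumour 1 and 3.59 on that of tumour 2, against 3.80 and 3.83 in double-positive cells.

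Genes of DNA replication, mitosis, the ribosome and the proteasome had small positive medians, those of the respiratory chain a negative one, and none was called. Of all 8793 genes, 21.8% were higher in both tumours and 21.7% lower. In DNA replication 16 of 31 genes were higher in both tumours and 2 lower, with a median of 0.57 (0.84 in tumour 1 and 0.26 in tumour 2). Among them mcm7, a subunit of the same helicase as mcm4, had 8.74 and 9.12 in GFP-only cells, against 7.78 and 7.93 in double-positive cells (1.07). The sliding clamp gene pcna had 7.22 and 7.32 in GFP-only cells, against 5.8 and 7.14 in double-positive cells, and nearly all of its difference came from tumour 1. In mitosis 16 of 35 genes were higher in both tumours and 2 lower, with a median of 0.44 (0.52 in tumour 1 and 0.14 in tumour 2). The mitotic kinase gene cdk1 had 5.23 and 4.6 in GFP-only cells, against 3.48 and 3.79 in double-positive cells (1.28). Of 72 cytosolic ribosomal protein genes 42 were higher in both tumours and 4 lower, with a median of only 0.19. The proteasome list (42 genes) had a median of 0.20, and the respiratory chain and ATP synthase list (77 genes) had one of -0.135. Both lists had medians of opposite sign in the 2 tumours. In the respiratory chain list 27 genes were lower in both tumours and 16 higher. At an unadjusted p under 0.05, 1 gene of these 5 lists was higher, mcm4, and 0 lower, beside 1.23% and 2.41% of all probe sets. Over all alternatives the replication median ran from 0.31 to 0.96 and the mitosis median from 0.05 to 0.48. The ribosomal, proteasome and respiratory chain medians turned sign in some, running from -0.10 to 0.37, from -0.21 to 0.66 and from -0.59 to 0.41.

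Signalling lists had 0 called genes by limma. At an unadjusted p under 0.05, 2.41% of all probe sets were lower and 1.23% higher. The medians of the RAS-MAPK, Notch, Wnt and hedgehog, and heat shock lists had opposite signs in the 2 tumours. For RAS-MAPK response (26 genes), the median was -0.01 and turned sign with 2 other scalings, and spry2, a feedback inhibitor of the pathway, was the 1 gene higher at an unadjusted p under 0.05. It had 6.76 and 5.71 in GFP-only cells, against 5.13 and 4.50 in double-positive cells (1.42, unadjusted p = 0.0494), and its 3 probe sets were all positive. The phosphatase gene dusp6, another feedback target, had 10.41 and 9.96 in GFP-only cells, against 10.23 and 10.22 in double-positive cells. Of 25 Notch pathway genes, notch3 alone was higher at that p and 0 were lower, and the median was 0.16. Wnt and hedgehog genes (29, median 0.09) had 0 genes at an unadjusted p under 0.05 in either direction. The heat shock and dissociation stress list (21 genes) had a median of 0.015, and the small heat shock gene hspb1, abundant in muscle, was lower at an unadjusted p of 0.0391, with 7.56 and 6.38 in GFP-only cells, against 8.53 and 8.22 in double-positive cells.

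**Figure D4:**
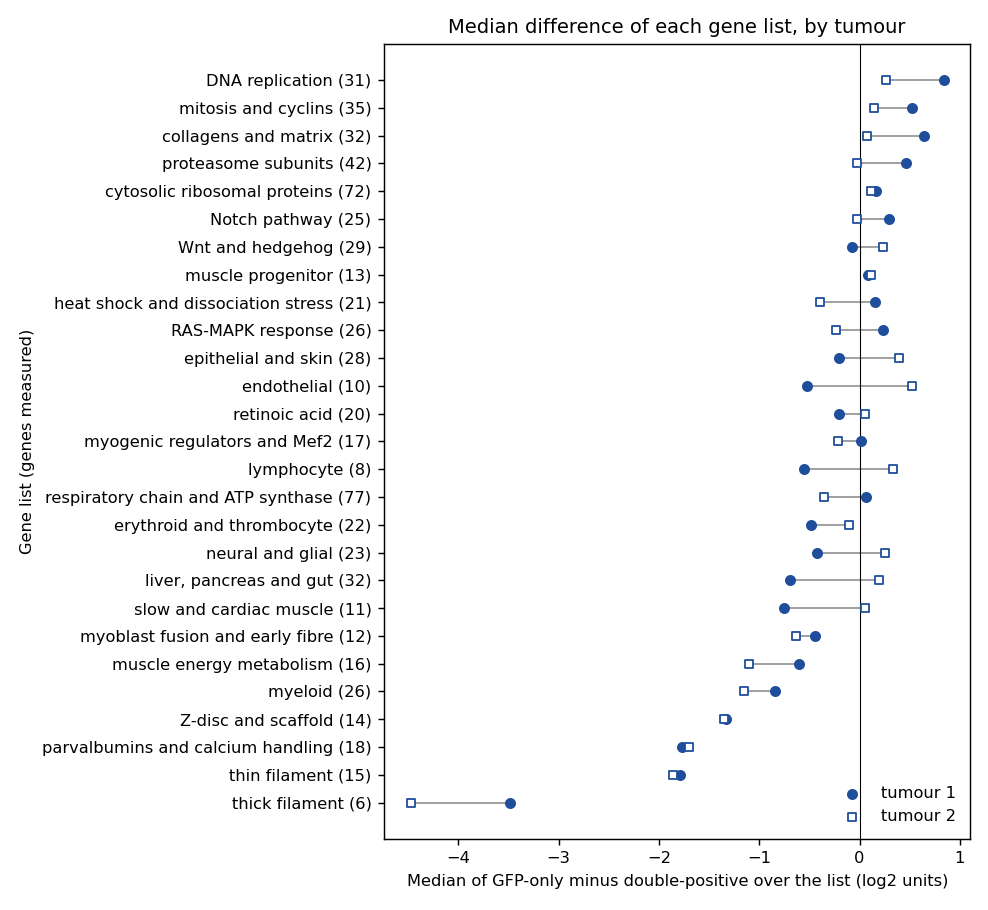
Median difference, GFP-only minus double-positive, over the measured genes of each list, in log2 units, for tumour 1 (filled circles) and tumour 2 (open squares). The number of genes measured is in parentheses. The 5 fast muscle lists and the myeloid list have medians of -0.605 or below in both tumours. Many other lists have opposite signs in the 2 tumours. Among these are the endothelial, lymphocyte, epithelial, slow and cardiac, RAS-MAPK, Notch, Wnt and hedgehog, heat shock and proteasome lists.

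Many myeloid genes also had lower values on GFP-only arrays, mostly without passing the test. Of 26 measured, 1 was called lower (lgals3bp.1) and 0 higher, beside 0.116% and 0% of all probe sets. At an unadjusted p under 0.05 in limma, 11 were lower and 0 higher, beside 2.41% and 1.23% of all probe sets. In both tumours 16 (61.5%) were lower and 0 higher, beside 22.7% and 20.8% of all probe sets. The list had a median of -1.03. Their mean level was 3.98 and 3.76 in GFP-only cells, against 4.92 and 5.08 in double-positive cells, while double-negative cells had 7.09 and 6.28 and mCherry-only cells 8.19 and 7.97. The macrophage scavenger receptor gene marco had 2.43 and 2.82 in GFP-only cells, against 5.99 and 5.28 in double-positive cells (-3.01, adjusted p = 0.189 in limma), and mCherry-only cells had 9.91 and 9.67. The cathepsin gene ctss2.2 had 3.59 and 3.98 in GFP-only cells, against 6.16 and 6.4 in double-positive cells (-2.49, adjusted p = 0.192 in limma), and a second probe set had a difference of -1.30. The complement gene c1qc had 2.91 and 1.52 in GFP-only cells, against 4.56 and 4.51 in double-positive cells. These genes were lowest in GFP-only cells and highest in mCherry-only cells. Granulocyte markers did not follow: lyz, the lysozyme, had 2.23 and 1.97 in GFP-only cells, against 1.69 and 3.43 in double-positive cells, and the populations overlapped for the peroxidase gene mpx, whose other probe sets had positive differences. No member was at 0 on any array, but both GFP-only values of marco, c1qc and lyz lie below the lower quartile of their arrays. The part of myeloid RNA in the difference of lgals3bp.1 was not tested. None of the 10 called fast muscle genes had a called difference between double-positive and mCherry-only cells. With n = 2 tumours this does not show that those populations are alike. The part of myeloid RNA in the differences of these 10 genes was not tested either.

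Markers of the other cell types had no calls. In the erythroid and thrombocyte list (22 genes, median -0.23), the spectrin gene sptb had 3.77 and 3.58 in GFP-only cells, against 6.70 and 6.30 in double-positive cells (-2.83, adjusted p = 0.189 in limma). Double-negative cells, which had the highest mean levels of this list, had only 4.94 and 4.75 of sptb. The globin gene hbaa1 had 4.34 and 3.27 in GFP-only cells, against 5.18 and 5.56 in double-positive cells (-1.57). Collagen and matrix genes (32) had a median of 0.435, with 0.64 in tumour 1 and only 0.07 in tumour 2. Over all alternatives that median ran from -0.06 to 0.68. Among them col1a1a had 6.75 and 7.15 in GFP-only cells, against 6.30 and 6.52 in double-positive cells. A second col1a1a probe set had a difference of -0.46. The endothelial (10 genes), lymphocyte (8), epithelial and skin (28), neural and glial (23), and liver, pancreas and gut (32) lists had medians between -0.33 and -0.01. All 5 had medians of opposite sign in the 2 tumours, and the pooled epithelial median turned sign with 2 other scalings. The skin keratin gene krt4 had 3.96 and 4.62 in GFP-only cells, against 4.1 and 4.09 in double-positive cells.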

How the data were processed

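The deposited values table gives 1 log-scale signal per probe set and array for 8 Affymetrix arrays. The authors' values were used as deposited and read as log2. Log base, summarisation and scaling are not given in the sources at hand, and signal over background was not used. A natural logarithm would not change the tests. Of 15502 probe sets, 10795 had 1 gene symbol in the array annotation, 135 several and 4572 none. They name 8793 genes, and for the 1539 with more than 1 probe set the one with the highest mean over 8 arrays was taken.

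A linear model of 4 population means with the tumour as a block was fitted to the 8 arrays (lmFit and eBayes of limma 3.58.1, R 4.3.3), with 3 residual and 6.81 prior degrees of freedom and a prior SD of 0.552. Tests were two-sided with Benjamini-Hochberg adjustment over all probe sets. The fit was tested on simulated data. The pairing comes from the labels, since same-numbered arrays are from 1 tumour. The deviations of same-numbered GFP-only and double-positive arrays from their means correlated at 0.0974.

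Genes named are 9 muscle genes (mylpfa, myf5, myod1, myog, desma, cdh15, pax7a, pax3a, met), up to 15 called genes per direction, the 12 per direction with the smallest p among those at least 1 in both tumours whose higher mean reached 4.64 (the median of all values), and up to 4 members per list with the smallest p. Further list members given as examples (tnnt3a, mybpc2b, srl, cyp26b1, aldh1a2, pcna, dusp6, c1qc, lyz, mpx, col1a1a, krt4) and the uncalled parvalbumins were chosen after their values had been seen. The 27 gene lists and the comparison were chosen with earlier results of these data known. The number of arrays limits the precision. Alternatives were no block, only 4 arrays, quantile normalization, median centring, omission of the dimmest 30% of probe sets, an intensity trend with robust prior, omission of the 2 arrays that stood apart, and omission of each array.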

Additional observations from a re-analysis of the deposited data

Results flagged for a closer look

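Only part of the genes named here was screened for opposite differences, not all probe sets. In 4 of the genes screened, the differences ran one way between GFP-only and double-positive cells. They ran the other way between double-negative and mCherry-only cells, in both tumours. For pax7a the GFP-only minus double-positive difference was 0.16 (0.08 and 0.25 in tumours 1 and 2). The double-negative minus mCherry-only difference was -0.47 (-0.76 and -0.18 in tumours 1 and 2). The corresponding values were 0.06 (0.02 and 0.11) and -0.79 (-1.25 and -0.34) for pax3a. The GFP-only minus double-positive differences of both genes are too small to give a direction. That of pax3a turned sign in 2 alternatives, and the pax7a probe sets had either sign. The test of the difference between the pairs gave unadjusted p-values of 0.362 and 0.324 in limma, so neither contrast exceeded the spread between arrays.

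The actin-severing scinderin gene scinlb had 0.35 and 0.68 in GFP-only cells, against 2.30 and 2.83 in double-positive cells, a difference of -2.05. All these values lie below the lower quartile of their arrays, so this difference is poorly bounded. In double-negative cells scinlb had 7.87 and 8.38, against 6.42 and 7.31 in mCherry-only cells, a difference of 1.26. The test of the difference between the pairs had an unadjusted p of 0.000577 and an adjusted p of 0.349 in limma. For the globin gene hbaa1 the differences were -1.57 and 1.62 (unadjusted p = 0.00733, adjusted p = 0.823 in limma), with 11.19 and 12.05 in double-negative cells, against 9.03 and 10.96 in mCherry-only cells. None of the 4 passed the test after adjustment.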

How the results depend on the processing

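Main counts are 18 probe sets lower and 0 higher in GFP-only cells. Without the replicate block, 1 was called lower and 0 higher, and mylpfa kept its difference of -3.97 but not its call (adjusted p = 0.175 in limma). With only the 4 GFP-only and double-positive arrays, or without the tumour 2 arrays of double-negative and mCherry-only cells, which gives the same test because the lone arrays that remain add nothing to the spread, 63 were lower and 6 higher. All 18 were among these 69. The fit of 4 arrays leaves 1 residual degree of freedom, so its spread comes mostly from an estimate pooled over all probe sets. Lower calls numbered 28 with an intensity trend and robust prior. Leaving out 1 array gave between 0 and 31 lower, between 0 and 3 higher, and a mylpfa difference between -4.49 and -3.46, which kept its call only in the runs that left out a double-negative array (adjusted p up to 0.609). A lone array of a population is then assumed to vary like the others. The test between the GFP-positive and GFP-negative pairs, with 0 calls, gave 7 without the pair of tumour 2 arrays, 2 with median centring, 3 without the dimmest 30% of probe sets, 4 with the trend and between 0 and 21 without 1 array. The cause was not tested.

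Only part of the genes named here was followed singly through the alternatives, and tnnt3a, mybpc2b and dusp6, among others, were not. Over all 15502 probe sets, 8594 had differences of opposite sign in the 2 tumours. Among the genes followed, differences turned sign without 1 array in 4, none of them called. The myf5 difference ran from -0.53 to 1.38, with -0.27 without the GFP-only array of tumour 1 and -0.53 without the double-positive array of tumour 1. That of myod1 ran from -0.6 to 1.69, with -0.06 and -0.6 without the GFP-only and double-positive arrays of tumour 2. That of cdh15 ran from -0.38 to 2.29, with -0.38 without the double-positive array of tumour 1. That of pax3a ran from -0.46 to 0.58, with -0.4 without the GFP-only array of tumour 1 and -0.46 without the double-positive array of tumour 2. The 14 called genes kept their sign under all 15 alternatives and were called in between 7 (lgals3bp.1) and 12 (pvalb4) of them. These alternatives are not all separate tests. Omitting either mCherry-only array gave the same test of this comparison, as did omitting either double-negative array. The run with only the 4 arrays compared and the omission of the arrays that stood apart were also the same. The 2 tumours and an unknown background limit how firmly low values are placed.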
